A study of Mus musculus with 12 samples.

Results

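Respiratory complex I, the NADH:ubiquinone oxidoreductase of the inner mitochondrial membrane, was followed through its nuclear genes in inguinal white adipose tissue (iWAT) of mice. The members were all genes whose symbol starts with Nduf, which gave 45 of the 14159 genes in the deposited values. They comprised 37 structural subunits (Ndufa, Ndufb, Ndufc, Ndufs, Ndufv and Ndufab1) and 8 assembly factors (Ndufaf). All 45 averaged 10 or more normalized counts and were tested. The assay was strand-specific sequencing of polyadenylated RNA from 12 iWAT samples, with 3 biological replicates (0, 1 and 2) in each of 4 groups. Atf4AKO mice were homozygous for a floxed Atf4 allele and carried Adipoq-Cre, which is active in adipocytes and leaves Atf4 intact in the other cells of the fat pad. Floxed littermates without the Cre served as Atf4WT. Both genotypes were on a C57BL/6 background and were either housed at RT or exposed to cold for 24 h. The age and the sex of the animals are not given in the sources used here. The libraries held 25719476 to 29105147 reads on the listed genes, and a normalized count is the reads of a gene divided by the size factor of its library.

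Complex I takes electrons from NADH and passes them through a flavin and a chain of iron-sulfur clusters to ubiquinone, while its membrane arm pumps protons. The core subunits that carry out the redox chemistry sit in the matrix arm, accessory subunits surround both arms, and assembly factors help to build the enzyme without remaining in it. In thermogenic fat, cold exposure is known to increase mitochondrial content, and the respiratory chain supplies the proton gradient that UCP1 dissipates as heat. For iWAT, the study reports that respiratory chain proteins and mitochondrial mass rose later in the cold than respiratory chain transcripts. The values below are RNA levels and not levels of the enzyme.

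Atf4 was read first as a check of the genotype labels. Its normalized counts were 5669, 4670.3 and 4107 in the Atf4WT libraries at RT and 7644, 7511 and 5756 after cold. The Atf4AKO libraries held 1594, 1469.6 and 1639 normalized counts at RT and 1578, 788 and 1179.8 after cold. Each Atf4AKO library lay below each Atf4WT library of the same temperature, and Atf4 reads remained in all Atf4AKO libraries. After cold, Atf4 was lower in Atf4AKO iWAT by a log2 fold change of -2.60 (SE 0.22, adjusted p = 0.000644, limma with Benjamini-Hochberg adjustment over 13404 genes), and 3 of 3 libraries showed this direction. The adjusted p was above 0.05 when only the cold groups were modelled (log2 fold change -2.60, adjusted p = 0.0598) and with a lymphocyte score as covariate (-2.69, adjusted p = 0.232), while the log2 fold change was not smaller in size. At RT the log2 fold change was -1.61 (adjusted p = 0.0762, limma, 3 of 3 libraries lower), which did not pass the threshold of 0.05. It passed without Atf4AKO cold replicate 0 (adjusted p = 0.0168) or Atf4AKO cold replicate 1 (adjusted p = 0.00512), with only the RT groups modelled (adjusted p = 0.0149) and in DESeq2 (adjusted p = 1.56e-09). The p-values throughout set a difference against the spread between these samples. In the main limma fit the spread was estimated over all 4 groups, so libraries outside a comparison also affect its p-values.

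The tissue label was checked against marker genes. All 8 adipocyte markers were listed, none was at 0, Fabp4 had the highest level per kilobase of transcript in all 12 libraries (7 markers with a length), and their summed counts ran from 998067 to 1523166 over the libraries. In limma 0 of them rose in the cold in either genotype (2 and 2 at an unadjusted p under 0.05 in either direction), and 1, Adipoq, fell in Atf4WT iWAT (log2 fold change -0.60, adjusted p = 0.0148). In Atf4WT iWAT edgeR and DESeq2 each called 0 as higher and 2 as lower (Adipoq and Lep). In Atf4AKO iWAT edgeR called 0, while DESeq2 called Fabp4 and Pnpla2 as higher and Adipoq as lower. These genes are named after their values were seen. The 6 beige adipocyte markers all rose in both genotypes, Elovl3 by 7.75 and 8.04 and Cidea by 2.16 and 2.16 on the log2 scale. None was at 0, and the highest level per kilobase was that of Cox8b in the 6 RT libraries and of Ucp1 in the 6 cold libraries. Summed, they reached 7864, 7555 and 6553 normalized counts in Atf4WT iWAT at RT and 132771, 110736 and 105494 after cold. The Atf4AKO sums were 7332, 9311 and 7591 at RT and 110845, 169948 and 135088 after cold. These markers moved with the cold comparisons of the Nduf genes, and their part in the Nduf results was not tested.

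The question of the cold comparison is how complex I transcripts responded to 24 h of cold in each genotype. In Atf4WT iWAT, 28 of the 37 structural subunits rose and 1 fell at an adjusted p under 0.05 (limma), while 17.0% of the 13404 tested genes rose and 14.9% fell. Their median log2 fold change was 0.59, a 1.51-fold difference, where the median of all tested genes was 0.00. All 3 cold libraries lay above all 3 RT libraries for 30 structural subunits, against 23.9% of all tested genes. The study used a fold change over 1.5 with an unadjusted p under 0.05 as its threshold, on DESeq2 results. Applied here to the limma values, it was passed upward by 19 structural subunits and by 10.9% of all tested genes. Of the 8 assembly factors, 4 rose and 0 fell in limma, with 6 at an unadjusted p under 0.05, 4 called by edgeR and 6 by DESeq2. The shares of all tested genes for these last 3 counts, in either direction, were 43.4%, 32.1% and 33.8%. Their median log2 fold change was 0.36. In these bulk samples, a change in the share of cells of a type and a change in RNA per cell cannot be told apart.

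In Atf4AKO iWAT, 28 structural subunits rose and 1 fell in the cold, beside 14.8% and 11.0% of all tested genes. The structural median was 0.60 on the log2 scale, a 1.52-fold difference, where all tested genes had a median of -0.03. Cold and RT libraries were fully apart, with cold above, for 31 structural subunits and for 21.7% of all tested genes. The study's threshold was passed upward by 19 of them, against 8.30% of all tested genes. Among the assembly factors 4 rose and 0 fell in limma, 5 had an unadjusted p under 0.05, and edgeR and DESeq2 each called 5. The shares of all tested genes for these 3 counts, in either direction, were 39.1%, 25.8% and 29.6%. Their median was 0.44. The cold comparisons of the genotypes share no library, and 28 structural subunits and 4 assembly factors were called in both of them. Another 7 structural subunits and 4 assembly factors were called in neither. In limma Ndufv3 was called only in Atf4WT and Ndufs1 only in Atf4AKO iWAT, and for neither gene did the difference between the cold responses pass its test (adjusted p = 0.999 and 0.996, limma). Ndufv3 is named after its values were seen.

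**Figure D1:**
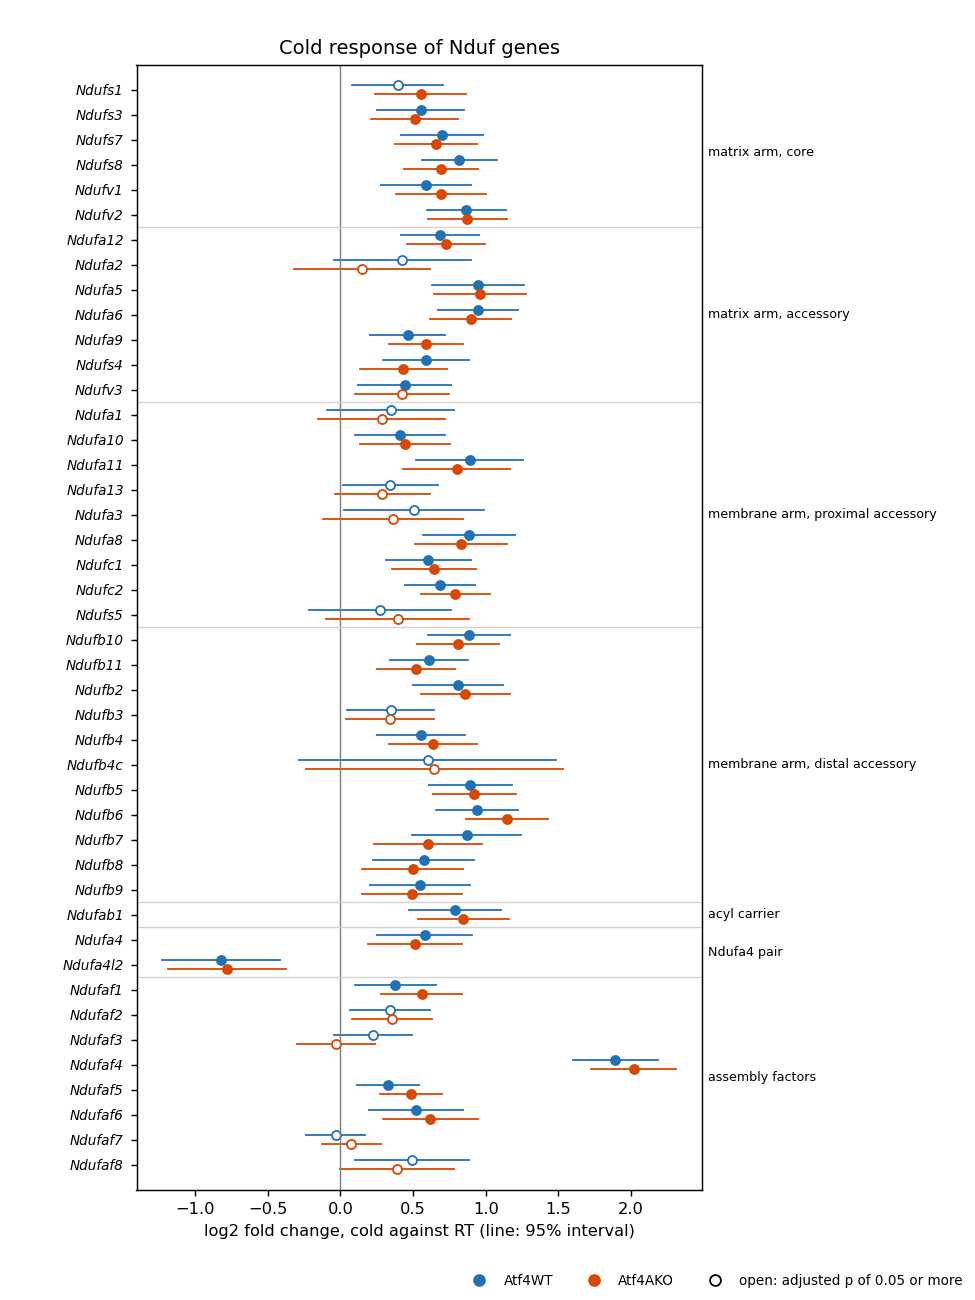
Log2 fold change in the cold of 44 Nduf genes in Atf4WT and Atf4AKO iWAT, with 95% confidence intervals (limma, 3 libraries per group), ordered by role and filled where called. Ndufaf4 lies highest at 1.89 and 2.02, and Ndufa4l2 lies lowest at -0.82 and -0.78.

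The members lay on 17 chromosomes, with at most 5 on any of them and 2 on chromosome X (RefSeq, GRCm38.p6). In the GENCODE annotation, exons of 12 of the 44 members examined share bases with an opposite-strand gene that is also listed, and none shares bases with a listed gene on its own strand. Among them are Ndufa11, Ndufa13, Ndufa3, Ndufa4l2, Ndufaf3, Ndufb11, Ndufb2, Ndufb5, Ndufb6, Ndufs1 and Ndufs3. The strand setting of the counting is not given in the sources used here, so reads from the shared bases may be counted for either gene and the values of these 12 members are uncertain to that extent. Transcript lengths were found for 44 members. The 18 shorter structural subunits (315 to 861 bases) had median cold responses of 0.69 in Atf4WT and 0.65 in Atf4AKO iWAT, with 13 called in each. The 18 longer ones (875 to 3479 bases) had medians of 0.58 and 0.57, with 16 called in each, so both length classes had positive medians.

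Because many members rose together in the cold, their promoter windows (RefSeq, GRCm38.p6, 250 bases before to 50 after an annotated start) were searched on both strands for fixed letters. Windows were found for 38 of the 45 members, and not for Ndufa2, Ndufa4l2, Ndufaf6, Ndufb4c, Ndufb9 or Ndufs1, among others. These were 32 windows for structural subunits, 2 of them of Ndufa5, and 7 for assembly factors. The NRF1 letters GCGCANGCG were in 8 of the 32 structural windows (25.0%), in 2 of the 7 assembly factor windows and in 6.25% of all 32851 windows. The 2 windows of Ndufa5 overlapped and held the same match, so by gene it was 7 of 31 structural subunits. The genes with an NRF1 match were Ndufa5, Ndufa6, Ndufa8, Ndufa11, Ndufb4, Ndufb10, Ndufs5, Ndufaf4 and Ndufaf5. The YY1 letters AAGATGGCG were in 4 structural windows (Ndufa9, Ndufc1, Ndufs4 and Ndufs7), in 1 assembly factor window (Ndufaf8) and in 1.40% of all windows. The estrogen-related receptor letters AAGGTCA were in 3 structural windows (Ndufb2, Ndufb4 and Ndufs5) and in 4.72% of all, and the cAMP response letters TGACGTCA were in 3 (Ndufa10, Ndufa11 and Ndufb2) and in 1.79% of all. The ETS letters CCGGAAGT were in 1 structural window (Ndufs3) and in 3.89% of all. The letters of the composite ATF4 site, TGATGNAA, were in 0 structural and 0 assembly factor windows and in 3.97% of all windows, which says only that these letters are not in these windows. CCAAT was in 9 structural and 4 assembly factor windows and in 37.4% of all. The median GC content was 59.2% for structural, 60.7% for assembly factor and 52.7% for all windows, and NRF1 and ETS letters are rich in G and C. A match is a description of the letters in the window and not a binding site. Ndufs5, which has an NRF1 match, had a cold log2 fold change of 0.27 in Atf4WT iWAT. This was the smallest among the 35 structural subunits other than Ndufa4 and Ndufa4l2. Whether matches went with the size of the cold response was not tested.

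Windows of 4 members are printed to show the range of cold responses, from the assembly factor with the highest cold log2 fold change (Ndufaf4) through structural subunits high in that order (Ndufa6 and Ndufb6) to an assembly factor that was not called (Ndufaf7). Capitals mark the searched letters. In the window of Ndufaf4 (chr4:24897833-24898132, plus strand) they mark 2 overlapping NRF1 matches on opposite strands, and in that of Ndufa6 (chr15:82354242-82354541, minus strand) a CCAAT match and an NRF1 match. The windows of Ndufb6 (chr4:40279372-40279671, minus strand) and Ndufaf7 (chr17:78936885-78937184, plus strand) hold none of the searched letters.
Ndufaf4: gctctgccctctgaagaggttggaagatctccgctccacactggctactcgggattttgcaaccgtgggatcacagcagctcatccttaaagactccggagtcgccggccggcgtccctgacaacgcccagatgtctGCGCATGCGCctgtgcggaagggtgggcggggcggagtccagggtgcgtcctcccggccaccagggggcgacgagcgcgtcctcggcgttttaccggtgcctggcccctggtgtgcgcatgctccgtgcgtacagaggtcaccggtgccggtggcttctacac
Ndufa6: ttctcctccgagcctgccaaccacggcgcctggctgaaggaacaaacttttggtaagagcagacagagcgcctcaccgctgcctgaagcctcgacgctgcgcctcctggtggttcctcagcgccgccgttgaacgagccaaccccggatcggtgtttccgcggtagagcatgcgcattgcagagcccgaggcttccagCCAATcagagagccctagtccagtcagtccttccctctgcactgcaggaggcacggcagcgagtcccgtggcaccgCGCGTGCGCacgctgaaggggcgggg
Ndufb6: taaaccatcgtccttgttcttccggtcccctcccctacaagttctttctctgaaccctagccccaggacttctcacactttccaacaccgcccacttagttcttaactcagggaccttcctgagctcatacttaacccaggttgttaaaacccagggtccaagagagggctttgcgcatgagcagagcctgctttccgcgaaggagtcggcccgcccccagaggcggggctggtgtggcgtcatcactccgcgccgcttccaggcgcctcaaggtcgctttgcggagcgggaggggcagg
Ndufaf7: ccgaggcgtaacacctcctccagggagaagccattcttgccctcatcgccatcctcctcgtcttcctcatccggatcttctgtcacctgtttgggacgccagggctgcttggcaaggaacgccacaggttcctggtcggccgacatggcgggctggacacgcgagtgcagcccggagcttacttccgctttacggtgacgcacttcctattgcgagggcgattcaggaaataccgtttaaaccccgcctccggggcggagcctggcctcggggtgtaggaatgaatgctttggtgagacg

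Nuclear-encoded core subunits form the electron path of the matrix arm. Of the 6 described here, 5 rose in the cold in Atf4WT and all 6 in Atf4AKO iWAT (limma). Ndufv2, which carries an iron-sulfur cluster next to the site of NADH oxidation, was at 4861, 5388 and 4334 normalized counts in the Atf4WT libraries at RT and 9411, 9069.9 and 8073 after cold. In Atf4AKO iWAT it was at 5335, 5760.1 and 4946 at RT and 8241, 11219.5 and 10111 after cold. All cold libraries lay above all RT libraries of their genotype. Ndufv2 rose by 0.87 (SE 0.12, adjusted p = 0.000662, limma, 3 of 3 libraries) in Atf4WT and by 0.87 (SE 0.12, adjusted p = 0.000733) in Atf4AKO iWAT on the log2 scale. Ndufv1, the flavin-bearing subunit that oxidizes NADH, had 6879.6, 7721 and 6008 normalized counts in the Atf4WT libraries at RT and 10449, 11621 and 8967 after cold. Its Atf4AKO libraries had 6386, 8184 and 6623 at RT and 9995, 12903 and 11371 after cold. Again no cold library fell into the RT range of its genotype. The log2 fold changes of Ndufv1 were 0.59 (adjusted p = 0.00949, limma, 3 of 3 libraries higher) and 0.69 (adjusted p = 0.0051).

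Ndufs7, which carries an iron-sulfur cluster, rose by 0.70 and 0.66 (adjusted p = 0.00266 and 0.00431), and Ndufs8, another iron-sulfur subunit, by 0.82 and 0.69 (adjusted p = 0.000679 and 0.00189), in Atf4WT and Atf4AKO iWAT respectively (limma, log2 scale). Ndufs3, a core subunit without a cofactor, rose by 0.55 (adjusted p = 0.011) and 0.51 (adjusted p = 0.0189). Its Atf4AKO call was lost without Atf4AKO RT replicate 0 (adjusted p = 0.0573), Atf4AKO RT replicate 2 (adjusted p = 0.0617) or Atf4AKO cold replicate 1 (adjusted p = 0.0745). The log2 fold changes in these fits were 0.50, 0.45 and 0.41.

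Ndufs1, the largest core subunit with several iron-sulfur clusters, held 7380.3, 8319.6 and 5929 normalized counts in the Atf4WT libraries at RT and 9109, 8768 and 10358 after cold. In Atf4AKO iWAT it held 7745, 8123 and 6415 at RT and 9452, 11099 and 12159.8 after cold. Every cold library was above every RT library of its genotype, and limma called only the Atf4AKO comparison. The log2 fold change was 0.55 in Atf4AKO (SE 0.14, adjusted p = 0.0166, limma, 3 of 3 libraries higher) and 0.39 in Atf4WT iWAT (SE 0.14, adjusted p = 0.0552). Without Atf4AKO RT replicate 2, cold replicate 1 or cold replicate 2 the Atf4AKO call was lost (log2 fold changes 0.45, 0.54 and 0.47, adjusted p = 0.0576, 0.0507 and 0.0595). The Atf4WT value passed the threshold without Atf4WT RT replicate 1 (adjusted p = 0.0359), Atf4AKO RT replicate 2 (adjusted p = 0.0467) or Atf4AKO cold replicate 0 (adjusted p = 0.0498). It also passed in DESeq2, with the lymphocyte score as covariate and after rescaling to the 75th percentile (adjusted p = 0.0358, 0.0364 and 0.0434), so the Atf4WT result depended on the tool and setting. Over these 6 core subunits the cold responses ran from 0.39 (Ndufs1) to 0.87 (Ndufv2) in Atf4WT and 0.51 (Ndufs3) to 0.87 (Ndufv2) in Atf4AKO iWAT.

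**Figure D2:**
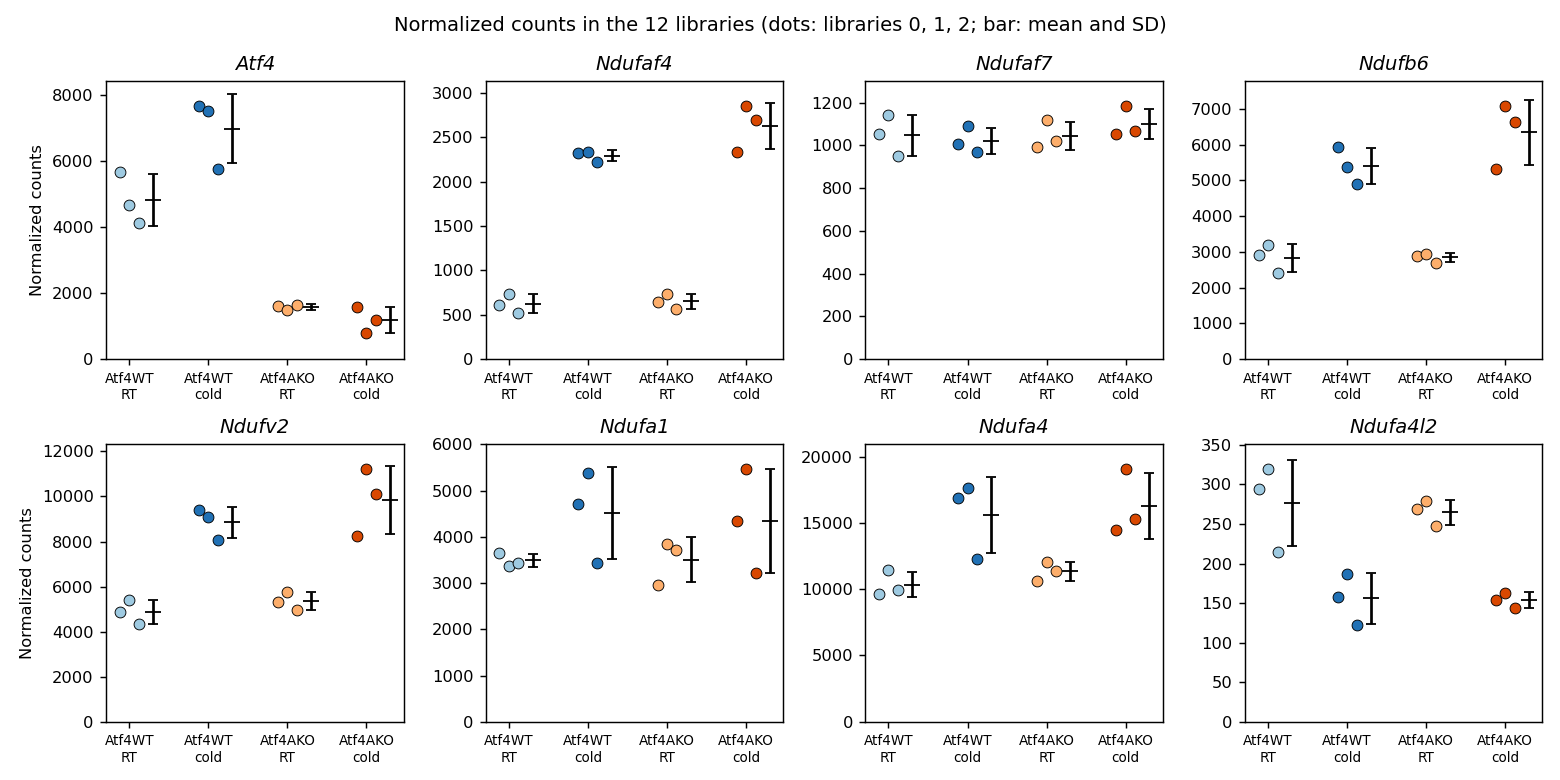
Normalized counts of Atf4 and 7 Nduf genes in the 12 libraries, with a point for each library and a bar for the mean and SD of each group (n = 3). The cold libraries of Ndufaf4 lie between 2225 and 2850.2, above RT libraries of 522 to 738.

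Of the 7 listed accessory subunits of the matrix arm, 6 rose in Atf4WT and 5 in Atf4AKO iWAT, with a median of 0.59 in each. Ndufa6, a small protein of the LYR family that binds the acyl carrier protein, was found at 2748, 3517 and 3072 normalized counts in the Atf4WT libraries at RT and 6419, 6158 and 5375 after cold. Its Atf4AKO libraries showed 3622, 3274 and 3487 at RT and 5638, 7711 and 6128 after cold. The RT and cold ranges were apart in both genotypes. Ndufa6, whose printed window holds an NRF1 match, rose by 0.95 (SE 0.13, adjusted p = 0.000475, limma, 3 of 3 libraries) in Atf4WT and by 0.90 (SE 0.13, adjusted p = 0.000731) in Atf4AKO iWAT. Ndufa5, which sits on the matrix arm near its junction with the membrane arm, had 2549, 2700.4 and 2219 normalized counts in the Atf4WT libraries at RT and 5777, 5030.5 and 3771 after cold. The Atf4AKO libraries of Ndufa5 had 2568, 2437 and 2489 at RT and 4326, 5499 and 4828 after cold. Here too the ranges did not meet, and Atf4WT cold replicate 2 was the lowest of the cold libraries. Ndufa5 rose by 0.95 (adjusted p = 0.000916) and 0.96 (adjusted p = 0.00105). Ndufa2 had the smallest mean of both cold responses in the matrix arm, with values of 0.43 (SE 0.21, adjusted p = 0.149, limma) in Atf4WT and 0.15 (adjusted p = 0.646) in Atf4AKO iWAT, neither of them called. Without Atf4WT cold replicate 2 its Atf4WT value was 0.68 (adjusted p = 0.0211), and without Atf4AKO cold replicate 1 its Atf4AKO value was -0.014 (adjusted p = 0.974).

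Accessory subunits of the membrane arm were split into those next to the matrix arm and those toward the distal end. Among the 9 listed proximal ones, 5 rose in Atf4WT and 5 in Atf4AKO iWAT, with medians of 0.51 and 0.45. This group held 2 of the 4 structural subunits with the smallest mean cold response. Ndufa1, a single-pass membrane subunit encoded on chromosome X, was at 3658, 3370.2 and 3437 normalized counts in the Atf4WT libraries at RT and 4717, 5383 and 3429.8 after cold. In the Atf4AKO libraries it was at 2955, 3846 and 3720.2 at RT and 4337, 5468 and 3209 after cold. Replicate 2 of each cold group lay within the RT range, so the groups overlapped. Its log2 fold changes were 0.35 (SE 0.20, adjusted p = 0.205, limma, 2 of 3 cold libraries above all RT libraries) and 0.28 (adjusted p = 0.318), and neither was called. Ndufa13, also known as GRIM-19, was at 0.34 (adjusted p = 0.102) in Atf4WT and 0.29 (adjusted p = 0.178) in Atf4AKO iWAT on the log2 scale, neither called by limma. The Atf4WT value of Ndufa13 was 0.53 (adjusted p = 0.00943) without Atf4WT cold replicate 2 and 0.73 (adjusted p = 0.0392) with the lymphocyte score as covariate.

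The distal membrane arm held the structural subunit with the largest mean of both cold responses, Ndufb6. Of its 11 listed accessory subunits, 9 rose in Atf4WT and 9 in Atf4AKO iWAT, with medians of 0.61 and 0.64. Ndufb6 was measured at 2900.5, 3191 and 2398 normalized counts in the Atf4WT libraries at RT and 5926, 5379 and 4912 after cold. Its Atf4AKO values were 2891, 2951 and 2698 at RT and 5331, 7075 and 6638 after cold. No cold library came near the RT range of its genotype. Ndufb6, whose printed window holds none of the searched letters, rose by 0.94 (SE 0.13, adjusted p = 0.000535, limma, 3 of 3 libraries) in Atf4WT and by 1.15 (SE 0.13, adjusted p = 0.000195) in Atf4AKO iWAT. Ndufb5 was at 3513, 3712 and 2809 normalized counts in the Atf4WT libraries at RT and 6677, 6289 and 5603 after cold. For Ndufb5 the Atf4AKO libraries read 3846, 3823 and 3442 at RT and 6007, 8093 and 7079 after cold. All cold libraries were higher than the RT libraries, and Ndufb5 rose by 0.89 and 0.92 (adjusted p = 0.00072 and 0.000717). Ndufb4c, named after its values were seen, is a near copy of Ndufb4. Only uniquely mapped reads were counted, so the values of Ndufb4c are uncertain and those of Ndufb4 may be affected too. Ndufb4c had 11.9, 16.4 and 7.42 normalized counts in the Atf4WT libraries at RT and 14.4, 17.9 and 21.7 after cold. Its log2 fold changes of 0.60 and 0.65 were not called (adjusted p = 0.277 and 0.261, limma). Its SD between replicates was the largest of all members, 0.47 on the log2 scale.

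Ndufab1, the mitochondrial acyl carrier protein, is part of both arms and also serves fatty acid and lipoic acid synthesis. It was at 5730.2, 6288 and 4612 normalized counts in the Atf4WT libraries at RT and 10116, 10087 and 8397 after cold. Its Atf4AKO counts were 5957, 6677 and 5564 at RT and 9136, 12387 and 11382 after cold. The cold libraries of each genotype stood clear of the RT libraries. Ndufab1 rose by 0.79 (SE 0.14, adjusted p = 0.0024, limma, 3 of 3 libraries) in Atf4WT and by 0.85 (adjusted p = 0.00191) in Atf4AKO iWAT on the log2 scale.

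Ndufa4 and its paralog Ndufa4l2 carry the symbol of complex I, but NDUFA4 is known to associate with cytochrome c oxidase and NDUFA4L2 is known as a hypoxia-inducible protein. Ndufa4 was counted at 9646, 11439.6 and 9969.99 normalized counts in the Atf4WT libraries at RT and 16912, 17604 and 12313 after cold. The Atf4AKO libraries gave 10599, 12077 and 11354 at RT and 14457, 19073 and 15293 after cold. The groups did not overlap, with Atf4WT cold replicate 2 and Atf4AKO cold replicate 0 the lowest cold libraries. Ndufa4 rose by 0.58 (SE 0.15, adjusted p = 0.0129, limma, 3 of 3 libraries) in Atf4WT and by 0.51 (SE 0.15, adjusted p = 0.0266) in Atf4AKO iWAT. The Atf4WT call was lost without Atf4WT cold replicate 1 (log2 fold change 0.48, adjusted p = 0.0534). The Atf4AKO call was lost without Atf4AKO RT replicate 0, RT replicate 2 or cold replicate 1 (log2 fold changes 0.46, 0.51 and 0.39, adjusted p = 0.0913, 0.0588 and 0.103). Ndufa4l2 was the member that fell. It had 294, 319.5 and 215 normalized counts in the Atf4WT libraries at RT and 158, 187 and 122 after cold. In Atf4AKO iWAT its counts were 269, 279 and 248 at RT and 154, 163 and 144 after cold. Every cold library lay below the RT libraries of its genotype. On the log2 scale Ndufa4l2 fell by 0.82 (SE 0.18, adjusted p = 0.00679, limma, 3 of 3 libraries) in Atf4WT and by 0.78 (adjusted p = 0.0106) in Atf4AKO iWAT. Its Atf4WT call was lost with a lymphocyte score as covariate (log2 fold change -0.38, adjusted p = 0.36). With both genes set aside, 27 of the remaining 35 structural subunits rose in each genotype, and the medians were 0.60 in Atf4WT and 0.64 in Atf4AKO iWAT.

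The 8 Ndufaf assembly factors had cold log2 fold changes from -0.03 (Ndufaf7) to 1.89 (Ndufaf4) in Atf4WT and from -0.03 (Ndufaf3) to 2.02 (Ndufaf4) in Atf4AKO iWAT. Ndufaf4, which works with Ndufaf3 in building the ubiquinone-binding module, had 611, 735 and 522 normalized counts in the Atf4WT libraries at RT and 2326, 2332 and 2225 after cold. Its Atf4AKO libraries had 645, 738 and 564 at RT and 2336, 2850.2 and 2696 after cold. The lowest cold library of either genotype was far above the highest RT library. Ndufaf4 rose by 1.89 (95% confidence interval 1.60 to 2.19, adjusted p = 1.92e-05, limma, 3 of 3 libraries) in Atf4WT iWAT, a 3.72-fold difference. In Atf4AKO iWAT it rose by 2.02 (95% confidence interval 1.73 to 2.31, adjusted p = 1.04e-05), a 4.05-fold difference. No other Nduf gene had as large a log2 fold change in either cold comparison. Its gene lies at chr4:24898083-24905001 on the plus strand (GRCm38.p6), and its printed promoter window holds 2 NRF1 matches. The partner Ndufaf3 had 735, 680.4 and 597 normalized counts in the Atf4WT libraries at RT and 852, 811 and 692 after cold. In Atf4AKO iWAT Ndufaf3 was at 816, 864 and 730.1 at RT and 722, 895 and 745 after cold. RT and cold libraries overlapped in both genotypes. Ndufaf3 values of 0.23 (adjusted p = 0.18) and -0.03 (adjusted p = 0.864) on the log2 scale were not called by limma, and the Atf4WT value passed with the lymphocyte score as covariate (0.56, adjusted p = 0.0394).

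Ndufaf1, which acts in membrane arm assembly with Ecsit, Acad9 and Tmem126b, was at 1011, 1219 and 936 normalized counts in the Atf4WT libraries at RT and 1384, 1320.4 and 1384 after cold. The Atf4AKO libraries were at 973, 1280.5 and 949.99 at RT and 1449, 1690.4 and 1545 after cold. Cold lay above RT throughout. It rose by 0.38 (adjusted p = 0.0427, limma, 3 of 3 libraries) in Atf4WT and by 0.56 (adjusted p = 0.00913) in Atf4AKO iWAT. Ndufaf5, which hydroxylates an arginine of Ndufs7, rose by 0.33 (adjusted p = 0.0251) and 0.49 (adjusted p = 0.00477). Ndufaf6, an early assembly factor, rose by 0.52 (adjusted p = 0.0206) and 0.62 (adjusted p = 0.0112). Most of these Atf4WT calls were lost without single libraries, as the number of called assembly factors went from 4 to 1 without Atf4WT RT replicate 0, Atf4WT RT replicate 2 or Atf4WT cold replicate 0. Without these libraries the adjusted p was 0.115, 0.136 and 0.0915 for Ndufaf1, 0.0723, 0.0613 and 0.0858 for Ndufaf5, and 0.0564, 0.0693 and 0.0714 for Ndufaf6. The log2 fold changes were then 0.35, 0.30 and 0.37 for Ndufaf1, 0.32, 0.32 and 0.27 for Ndufaf5 and 0.52, 0.44 and 0.42 for Ndufaf6, where all libraries gave 0.38, 0.33 and 0.52. The calls over all tested genes moved too. Leaving out 1 library gave 3016 (without Atf4WT RT replicate 1) to 4431 genes (without Atf4AKO cold replicate 1) in the Atf4WT cold response, against 4273 with all libraries. The number of genes called without each library that left 1 assembly factor called is not given here. The Ndufaf1 call was also lost without Atf4WT cold replicate 1 (adjusted p = 0.0776), Atf4WT cold replicate 2 (adjusted p = 0.0971) or Atf4AKO cold replicate 2 (adjusted p = 0.0562), and the Ndufaf5 call without Atf4WT RT replicate 1 (adjusted p = 0.0529) or with the lymphocyte score as covariate, where its log2 fold change was larger (0.48, adjusted p = 0.0623). With only the Atf4WT groups in the model, Ndufaf5 and Ndufaf6 missed the threshold (adjusted p = 0.0572 and 0.054).

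Ndufaf2, a late assembly factor related to Ndufa12, was at 0.34 (adjusted p = 0.0576) in Atf4WT and 0.36 (adjusted p = 0.0583) in Atf4AKO iWAT on the log2 scale, values that limma did not call. DESeq2 called both (adjusted p = 0.0461 and 0.0349) and edgeR the Atf4AKO value (adjusted p = 0.0453), so the result depended on the tool. In limma the Atf4WT value passed without Atf4WT RT replicate 1, Atf4WT cold replicate 2, Atf4AKO cold replicate 1 or Atf4AKO cold replicate 2 (adjusted p = 0.0418, 0.042, 0.0426 and 0.0492) or with the lymphocyte score as covariate (adjusted p = 0.0476), and the Atf4AKO value without Atf4AKO cold replicate 2 (adjusted p = 0.0385). Ndufaf8, the partner of Ndufaf5, had values of 0.49 (adjusted p = 0.0548) and 0.39 (adjusted p = 0.129), not called by limma, while DESeq2 called the Atf4WT value (adjusted p = 0.0289). In limma its Atf4WT value passed without Atf4WT cold replicate 2 (0.68, adjusted p = 0.0135) or Atf4AKO cold replicate 1 (adjusted p = 0.0328), or with the lymphocyte score as covariate (0.92, adjusted p = 0.0359). Ndufaf7, a mitochondrial methyltransferase, was at 1052, 1141 and 949 normalized counts in the Atf4WT libraries at RT and 1008, 1088 and 967 after cold. Its Atf4AKO libraries were at 993, 1116 and 1021 at RT and 1052, 1182 and 1065 after cold. The RT and cold libraries overlapped in both genotypes. The log2 fold changes of Ndufaf7 were -0.03 (95% confidence interval -0.24 to 0.17, adjusted p = 0.804, limma) and 0.08 (95% confidence interval -0.13 to 0.28, adjusted p = 0.572).

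Assembly factors of complex I with other symbols were read from a list of 12, of which 11 were listed. In Atf4WT iWAT 6 of the 11 rose and 1 fell, and in Atf4AKO iWAT 6 rose and 0 fell (limma), with medians of 0.42 and 0.51. Ecsit, a partner of Ndufaf1, rose by 0.71 and 0.78 (adjusted p = 0.0024 and 0.00172). Nubpl, which delivers iron-sulfur clusters, fell by 0.51 in Atf4WT iWAT (adjusted p = 0.0145, limma) and had a log2 fold change of -0.34 in Atf4AKO iWAT (adjusted p = 0.0833). Acad9 and Tmem126b, the other partners of Ndufaf1, had Atf4WT values of 0.16 and 0.13 that were not called. Factors outside this list were not analysed here.

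Levels were compared between genes only per kilobase of transcript. The median structural subunit had 4263 normalized counts per kilobase in Atf4WT iWAT at RT, 7033 after cold, 4616 in Atf4AKO iWAT at RT and 7395 after cold. The median assembly factor had 525, 608, 568 and 676 in the same order. Ndufa4 had the highest level per kilobase, 16970.2 ± 1567 (SD, n = 3) in Atf4WT iWAT at RT and 25589.6 ± 4714 after cold. Among the structural subunits with a transcript length, the lowest level was that of Ndufa4l2, at 296 ± 58.3 and 167 ± 34.5 per kilobase in the same Atf4WT groups. Ndufaf4 ranked 43 of 44 in Atf4WT iWAT at RT with 171 ± 29.5 per kilobase, within the spread of the lowest member Ndufaf6 at 169 ± 19.4. After cold Ndufaf4 was at 632 ± 16.4 per kilobase and ranked 39 of 44, so the member with the largest cold log2 fold change was still among those with the lowest levels.

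The members varied together between libraries of a group. As the median over the structural subunits of the log2 deviation from the mean of the 12 libraries, the Atf4WT libraries were at -0.35, -0.24 and -0.53 at RT and 0.36, 0.38 and 0.06 after cold. The Atf4AKO libraries were at -0.31, -0.11 and -0.34 at RT and 0.23, 0.63 and 0.26 after cold. By this measure all cold libraries lay above all RT libraries. For the assembly factors the same deviations in Atf4WT iWAT were -0.30, -0.12 and -0.41 at RT and 0.21, 0.10 and -0.01 after cold, and in Atf4AKO iWAT -0.18, -0.11 and -0.13 at RT and 0.14, 0.45 and 0.19 after cold. Atf4WT RT replicate 2 was the lowest of its group for 32 of the 37 structural subunits, and Atf4WT cold replicate 2 for 35. Atf4AKO RT replicate 1 was the highest of its group for 31 and Atf4AKO cold replicate 1 for 34. The subunits within a library are thus not independent measurements of the cold response. The SD between replicates, pooled over the groups, had a median of 0.19 on the log2 scale for structural subunits, 0.16 for assembly factors and 0.19 for all tested genes.

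**Figure D3:**
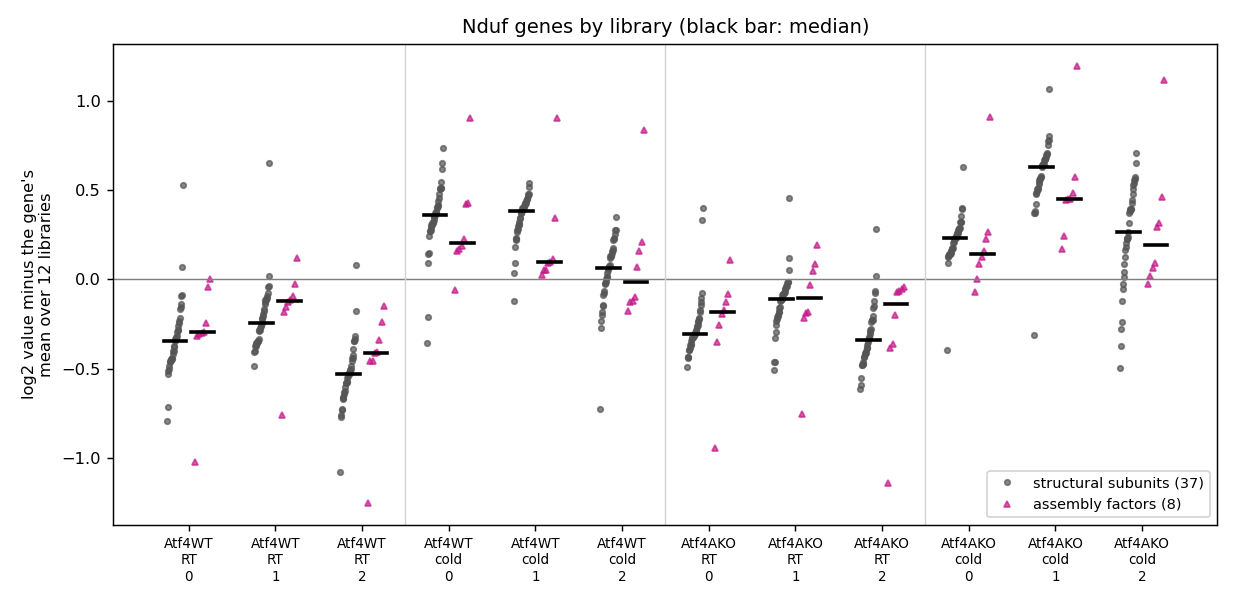
Log2 values of the 37 structural subunits and 8 assembly factors in each library minus the mean of the gene over the 12 libraries, with a point for each gene and a black bar at the median. Structural medians lie from -0.53 to -0.11 at RT and from 0.06 to 0.63 after cold.

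Markers of other cells differed between libraries of a group. Skeletal muscle markers, of which 6 of 10 were listed, summed to 499.8, 913 and 94204 normalized counts in Atf4WT iWAT at RT and 32679.6, 156 and 212 after cold. In Atf4AKO iWAT they summed to 220.3, 176 and 373 at RT and 86.1, 3469 and 91.3 after cold, with none at 0. The highest level per kilobase was that of Acta1 in 5 libraries, Mylpf in 4, Tnnt3 in 2 and Tnnc2 in 1. Atf4WT RT replicate 2 and Atf4WT cold replicate 0 stood far above the others, and 0 of the 6 markers were called in either cold comparison (limma; 0 and 0 at an unadjusted p under 0.05, edgeR 0 and 0, DESeq2 0 and 0). Without these 2 libraries, a setting chosen after seeing the data, 17 instead of 29 structural subunits were called in Atf4WT iWAT, with a median of 0.48. Among others, Ndufs3, Ndufv1 and Ndufa4 then missed the threshold (log2 fold changes 0.42, 0.49 and 0.49, adjusted p = 0.0931, 0.0699 and 0.0906). Of the assembly factors, 1 instead of 4 was called. How many of all tested genes were called in this fit is not reported here. A fall particular to these members can therefore not be told from a general one. The fit also lacked 1 library of each Atf4WT group. Of the 37 structural subunits, Atf4WT RT replicate 2 was the lowest of its group for 32. Atf4WT cold replicate 0 was the highest of its group for 20. The parts of muscle and of these levels in the lost calls were not tested.

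Lymphocyte markers moved with the Atf4WT cold comparison, with the genotype comparison after cold and with the difference between the cold responses. The 8 B cell markers, all listed and none at 0, with Cd79a or Cd79b highest per kilobase in 6 libraries each, summed to 112, 89.5 and 3650.3 in Atf4WT iWAT at RT and 3657, 7473 and 12501 after cold. In Atf4AKO iWAT their sums were 472, 80.7 and 169 at RT and 318, 76.0 and 86.0 after cold. The 8 T cell markers, with none at 0 and Cd2 highest per kilobase in 9 libraries and Lck in 3, summed to 255, 193 and 689 in Atf4WT iWAT at RT and 855, 5149.8 and 6261 after cold. The Atf4AKO sums of T cell markers were 358, 294 and 788 at RT and 403, 169 and 222 after cold. All 8 B cell and all 8 T cell markers rose in the cold in Atf4WT iWAT by limma, while edgeR called 0 and 8 and DESeq2 0 and 8, so the B cell calls depended on the tool. In Atf4AKO iWAT 0 of either list rose (0 and 0 at an unadjusted p under 0.05, 0 and 0 called by edgeR, 0 and 0 by DESeq2). With the mean log2 level of these markers as a covariate, the median cold log2 fold change in Atf4WT iWAT was 0.98 for structural subunits and 0.66 for assembly factors. Macrophage markers, 5 of 6 listed, none at 0 and Lyz2 highest per kilobase in all 12 libraries, summed to 21267, 17948 and 24731 in Atf4WT iWAT at RT and 21913, 10679 and 27046 after cold. Their Atf4AKO sums were 30137, 16236 and 20598 at RT and 21102, 3619 and 19852 after cold, with Atf4AKO cold replicate 1 the lowest of the 12 libraries. Much of these sums was Lyz2. The median cold log2 fold change of the 5 was -0.94 in Atf4WT (1 positive, Lyz2 at 0.17, and 2 with all cold libraries below all RT libraries) and -0.96 in Atf4AKO iWAT (0 positive). They had 0 calls in both cold comparisons (limma; 0 and 0 at an unadjusted p under 0.05, edgeR 0 and 0, DESeq2 0 and 0). Of 5 endothelial markers, 1 fell in Atf4WT (Cdh5) and 1 rose in Atf4AKO iWAT (Emcn), both named after their values were seen (limma and edgeR). DESeq2 called these 2 and, in Atf4WT iWAT, also Tek as lower. The part of these cells in the Nduf results was not tested.

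For comparison, the other respiratory complexes were counted in the same fits. Complex II had 4 listed genes, of which 2 rose in Atf4WT and 2 in Atf4AKO iWAT, with medians of 0.47 and 0.51. In Atf4WT iWAT they ran from 0.23 (Sdha) to 1.12 for Sdhd. Of 9 complex III genes 8 and 7 rose (medians 0.86 and 0.81), and in Atf4WT iWAT they ran from 0.51 (Uqcr11) to 1.09 for Uqcrfs1, the Rieske protein. Of 10 complex IV genes 8 and 7 rose (medians 0.62 and 0.59), with Atf4WT values from 0.24 (Cox8a) to 1.07 for Cox5a. Of 15 ATP synthase genes 10 and 11 rose (medians 0.59 and 0.60), with Atf4WT values from 0.07 (Atp5j) to 0.84 for Atp5o. The structural medians of complex I, 0.59 and 0.60, lay within the range of these medians, and no test between complexes was made. Of 10 regulators of mitochondrial biogenesis, 7 rose in each genotype. Perm1 rose by 3.79 and 4.61, Esrra by 1.27 and 1.23, and Gabpa, a GA-binding protein subunit that recognizes ETS letters, by 0.32 and 0.45. Nrf1 had values of 0.18 and 0.06 and Yy1 of -0.06 and 0.07, which were not called.

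**Figure D4:**
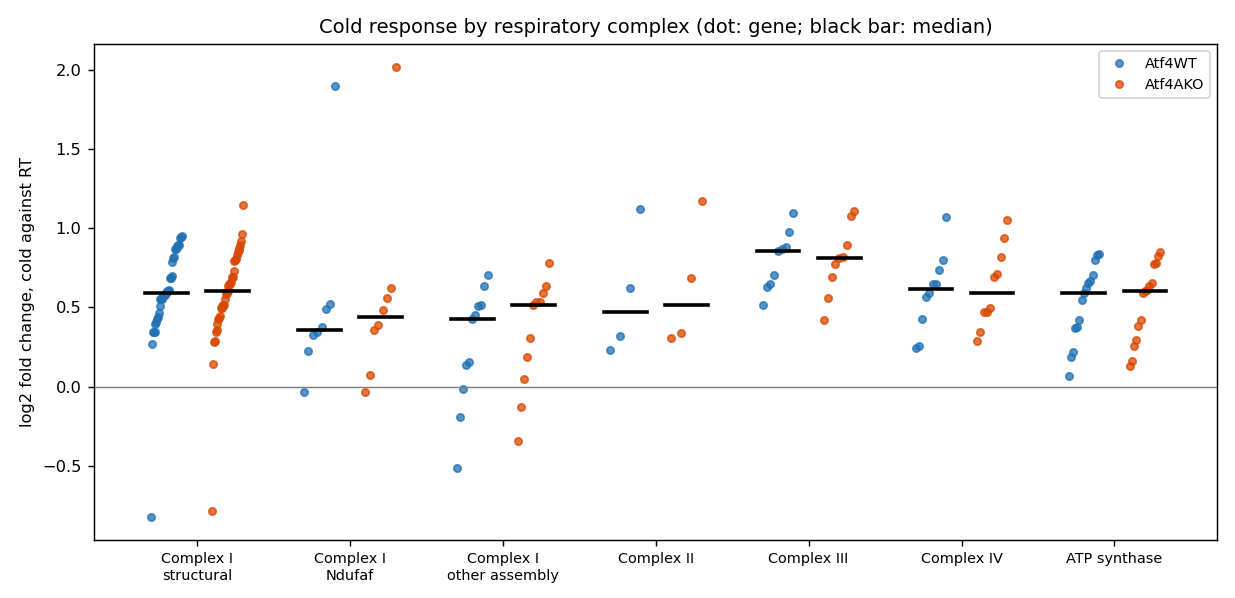
Cold log2 fold changes of complex I structural subunits, Ndufaf and other complex I assembly factors, and the genes of complexes II, III and IV and ATP synthase, with a point for each gene and a black bar at the median for each genotype. The medians for complex I structural subunits are 0.59 and 0.60.

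The question of the genotype comparison is whether Nduf transcripts differed between Atf4AKO and Atf4WT iWAT. After cold, 0 of the 45 Nduf genes were called by limma, against 0.0298% of all tested genes, and edgeR and DESeq2 also called 0, against 0.0224% and 4.43%. At an unadjusted p under 0.05, limma counted 0 members against 11.7% of all tested genes, and edgeR and DESeq2 counted 2 and 2, against 13% and 12%. The structural median was 0.12 with 32 of 37 values positive, and the assembly factor median 0.15 with 8 of 8, where all tested genes had a median of 0.05. Several other lists were also mostly positive without being tested as lists, with 8 of 8 adipocyte markers, 6 of 6 beige markers, 4 of 4 complex II, 9 of 9 complex III, 10 of 10 complex IV and 12 of 15 ATP synthase genes positive (medians 0.20, 0.18, 0.13, 0.13, 0.14 and 0.12), so the positive values were not particular to the Nduf genes. Skeletal muscle markers went the other way with 0 of 6 positive (median -1.52), and macrophage markers with 1 of 5 (median -0.11). None of these muscle or macrophage markers was called by limma, edgeR or DESeq2, or reached an unadjusted p under 0.05. All 3 Atf4AKO libraries lay above all 3 Atf4WT libraries for 2 members (Ndufaf1 and Ndufaf4), against 8.68% of all tested genes, and below for 0, against 7.84%. The log2 fold change between genotypes was 0.19 for Ndufaf1 and 0.19 for Ndufaf4 (adjusted p = 0.606 and 0.625, limma, 3 of 3 libraries). Ndufc2, a membrane arm subunit, had the smallest p, with cold counts of 8050.5, 7973 and 7172 in Atf4WT and 7835, 10116 and 9311 in Atf4AKO iWAT. The groups overlapped through Atf4AKO cold replicate 0. Its log2 fold change was 0.23 (95% confidence interval -0.01 to 0.47, adjusted p = 0.455, limma, 2 of 3 libraries above all of Atf4WT). Ndufa9, which has a nucleotide-binding fold, had cold counts of 10289.9, 10867 and 9753 in Atf4WT and 10161, 12963 and 13518 in Atf4AKO iWAT. The Ndufa9 groups also overlapped through Atf4AKO cold replicate 0, with a log2 fold change of 0.24 (95% confidence interval -0.02 to 0.49, adjusted p = 0.471, 2 of 3 libraries above all of Atf4WT). A p that misses the threshold does not show that the genotypes were equal.

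After cold, each Atf4WT library had a higher summed B cell and T cell marker level than each Atf4AKO library, so genotype and lymphocyte level cannot be told apart in this comparison. The 8 B cell and 8 T cell markers had medians of -5.73 and -3.65 on the log2 scale, with 0 and 0 called by limma, 8 and 8 at an unadjusted p under 0.05, 0 and 0 called by edgeR and 8 and 8 by DESeq2. With the lymphocyte score as a covariate, the structural median of Atf4AKO against Atf4WT after cold was -0.32 and the assembly factor median -0.25, the reverse of the direction without it. Without Atf4AKO cold replicate 1 the structural median was -0.003. The assembly factor median was then 0.089. The structural median was 0.0016 without Atf4WT cold replicate 2 and 0.19 without Atf4AKO cold replicate 0. Atf4AKO cold replicate 1 also had the lowest macrophage marker sum, and the part of this in the median was not tested. No Nduf gene was called by limma in any alternative that was run for this comparison.

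At RT, 0 of the 45 Nduf genes were called between genotypes by limma, edgeR or DESeq2, against 0.00746%, 0.00746% and 0.0284% of all tested genes. At an unadjusted p under 0.05 there were 0 in limma, against 1.53% of all tested genes, 1 in edgeR, against 2.18%, and 0 in DESeq2, against 1.99%. The medians were 0.13 for structural subunits (34 of 37 positive) and 0.05 for assembly factors (7 of 8 positive), where all tested genes had 0.01. Without Atf4WT RT replicate 2, the library high in muscle markers, they were 0.048 and -0.013. Without Atf4AKO RT replicate 1 they were 0.063 and 0.011. In the other direction, the assembly factor median was 0.16 without Atf4WT RT replicate 1 and 0.096 without Atf4AKO RT replicate 2. Of the 6 skeletal muscle markers, 0 were positive in this comparison (median -3.34), and 2 had Atf4AKO libraries fully below. None was called by limma, edgeR or DESeq2, with 0, 6 and 1 at an unadjusted p under 0.05. The part of muscle in the Nduf medians was not tested. The Atf4AKO libraries lay fully above for 2 members (Ndufb9 and Ndufb10, named after their values were seen), against 3.32% of all tested genes, and fully below for 0, against 2.98%. The smallest p was that of Ndufaf3, with a log2 fold change of 0.26 (95% confidence interval -0.01 to 0.53, adjusted p = 1.0, limma, 2 of 3 libraries above all of Atf4WT). Ndufs8 followed with 0.25 (95% confidence interval -0.01 to 0.50, adjusted p = 1.0, 2 of 3 libraries above all of Atf4WT).

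**Figure D5:**
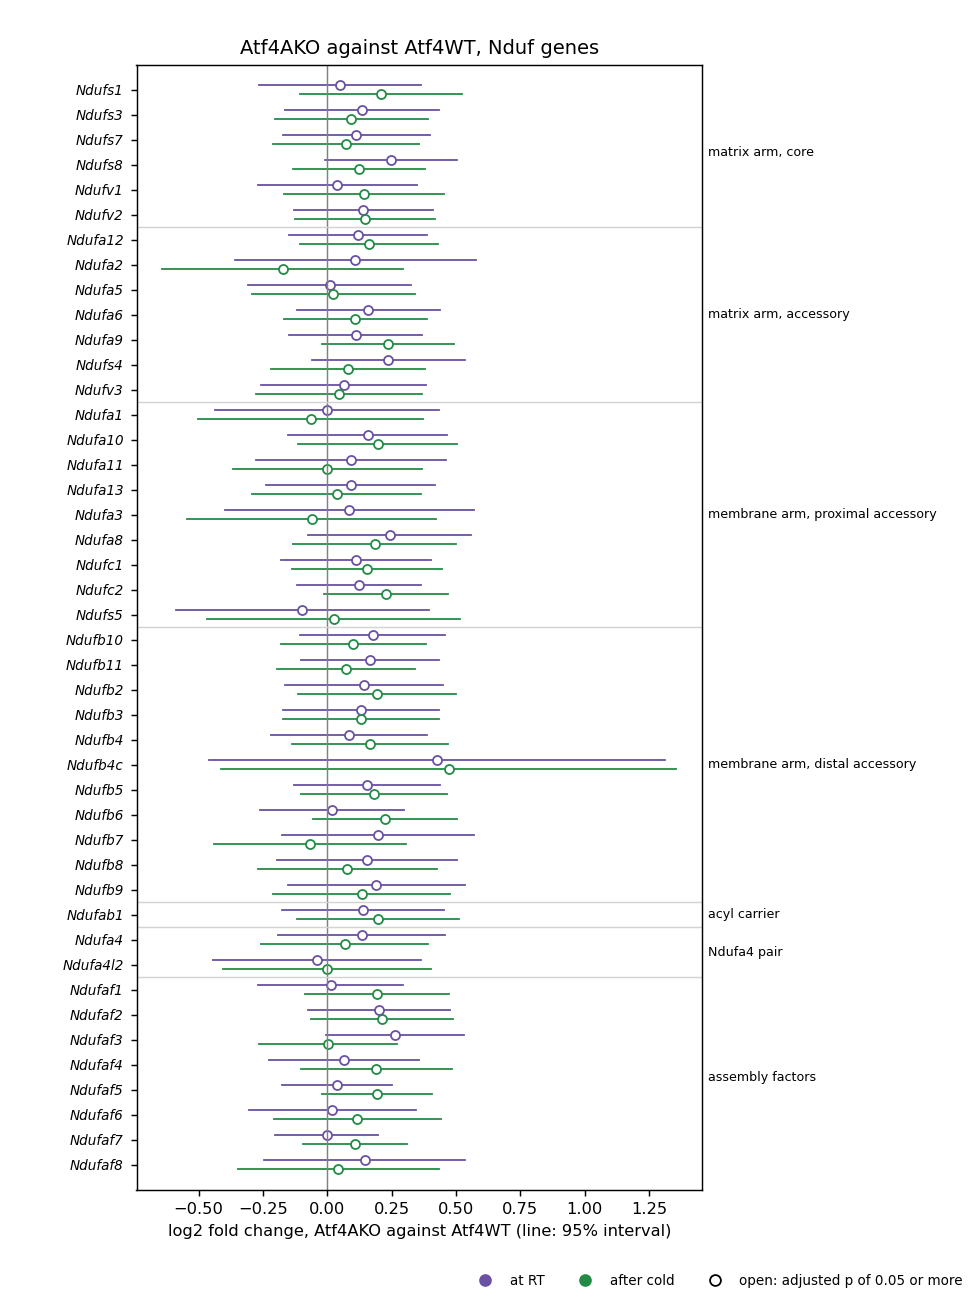
Log2 fold change of Atf4AKO against Atf4WT iWAT after cold and at RT for 44 Nduf genes, with 95% confidence intervals (limma, 3 libraries per group; open points are not called). The values run from -0.17 (Ndufa2) to 0.47 (Ndufb4c) after cold and from -0.10 (Ndufs5) to 0.43 (Ndufb4c) at RT, and no gene is called.

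Whether the cold response itself differed between genotypes was tested as the difference of the cold responses, Atf4AKO minus Atf4WT. None of the 45 members was called by limma, edgeR or DESeq2 (0 of 45), and 0%, 0% and 1.04% of all tested genes were called by them. An unadjusted p under 0.05 was reached by 0 members in limma, edgeR and DESeq2, against 6.92%, 7.18% and 7.04% of all tested genes. The median difference was -0.0016 for structural subunits and 0.10 for assembly factors, where all tested genes had 0.03. Leaving out 1 library moved the structural median to between -0.14 (without Atf4AKO cold replicate 1) and 0.056 (without Atf4WT RT replicate 2). The assembly factor median was 0.0070, 0.042 and 0.052 without Atf4WT RT replicate 1, Atf4AKO RT replicate 2 and Atf4AKO cold replicate 1. It was 0.17 without Atf4WT RT replicate 2 and 0.17 without Atf4AKO cold replicate 0. Without the 2 libraries high in muscle markers the medians were 0.13 and 0.20. The 95% confidence interval held 0 for all 37 structural subunits and all 8 assembly factors. Over the structural subunits its median bounds were -0.46 and 0.43, so for a typical subunit a difference within these bounds could not be told from 0. Ndufaf3 had the smallest p, with a difference of -0.26 (95% confidence interval -0.64 to 0.12, adjusted p = 0.952, limma), followed by Ndufb6 with 0.21 (95% confidence interval -0.19 to 0.60, adjusted p = 0.996). For Ndufaf4 the difference was 0.13 (95% confidence interval -0.29 to 0.54, adjusted p = 0.996). With the lymphocyte score as a covariate the medians were -0.43 for structural subunits and -0.33 for assembly factors, still with 0 members called. The 8 B cell and 8 T cell markers had median differences of -5.04 and -4.26 on the log2 scale. At an unadjusted p under 0.05 there were 8 and 8 in limma, 0 and 8 in edgeR and 1 and 8 in DESeq2. After adjustment, limma and edgeR each called 0 and 0, and DESeq2 called 0 and 7.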

How the data were processed

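The members and gene lists were chosen with earlier results of these data known. The authors used SOAPnuke for read filtering, STAR for mapping (mm10), featureCounts for uniquely mapped reads and DESeq2 size factors for scaling; the versions and the strand setting are not given in the sources used here. The deposited normalized counts (a signal per gene) covered 12 libraries, and 100% of values gave whole reads (within 0.001 reads) when divided by the value of 1 read of the library. The deposited values were converted here to log2(normalized count + 1) and tested with limma 3.58.1 in R 4.3.3 (lmFit, eBayes with trend) on 13404 genes averaging 10 or more (755 averaged less). The model held 4 group means, with Benjamini-Hochberg adjustment over all tested genes and calls at an adjusted p under 0.05. Fold changes are on that log2 scale and understate those of low genes. Recovered reads were tested with edgeR 4.0.16 (quasi-likelihood) and DESeq2 1.42.0 as alternatives. Named were all Ndufaf genes, the matrix arm core subunits except 1 that is not reported here, Ndufab1, Ndufa4, Ndufa4l2, the 4 structural subunits with the largest and the 4 with the smallest mean cold response, the 2 smallest p-values of each genotype test, the extremes per transcript length and examples of the other lists. Transcript lengths came from GENCODE, positions and promoters from RefSeq (GRCm38.p6). The tests were also run on simulated reads, and the outcome of that check is not reported here. Replicates within groups varied beyond counting noise (chi-square per degree of freedom 36.7 to 73.5). Python 3.11.15, numpy 2.4.6, pandas 2.3.3 and matplotlib 3.10.9 were used. An exact permutation test of 3 against 3 libraries cannot give a p under 0.1 and was not used.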

Additional observations from a re-analysis of the deposited data

How the results depend on the processing

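Of 1376 alternative values of 60 gene results, 1298 kept direction and side of the threshold, 36 lost the call, 32 gained it and 10 reversed. The replicate numbers did not pair the libraries by the rule that every pair correlates above 0.1 (correlations of same-numbered deviations -0.18 to 0.10 for replicate 0, 0.18 to 0.39 for replicate 1 and -0.19 to 0.37 for replicate 2). A library correlated best with its own number in 17 of 36 comparisons with another group, among them all those of replicate 1, a hint from the data and not the design. With a replicate block 32 structural subunits in each cold response and 6 and 5 assembly factors in Atf4WT and Atf4AKO were called, and 4858, 4129, 189 and 3 of all genes in the cold responses of Atf4WT and Atf4AKO and between genotypes after cold and at RT. Without it these were 4273, 3467, 4 and 1, and 0 for the difference of cold responses. Among the 60 gene results the block gained 5 calls in limma. These were Atf4 between genotypes at RT (adjusted p = 0.049) and, in the Atf4WT cold response, Ndufa13 and Ndufaf8 (adjusted p = 0.0377 and 0.032). Ndufaf2 was gained in both cold responses (adjusted p = 0.0246 in Atf4WT and 0.0253 in Atf4AKO). DESeq2 called 600 genes between genotypes after cold, 4 at RT and 138 for the difference. The lymphocyte score gave 1801 for the Atf4WT cold response, 0 and 2 between genotypes, structural medians of 0.98, -0.32 (after cold) and -0.43 (difference), and assembly factor medians of 0.66, -0.25 and -0.33. Under it Ndufaf7 was at 0.18 (Atf4WT cold), Ndufa9 at -0.13 and Ndufc2 at -0.17 (genotype after cold) and Ndufb6 at -0.31 (difference). With only the groups compared, 0 genes were called after cold and 2 at RT, and 2 assembly factors in the Atf4WT cold response. A pseudocount of 5 gave 2 at RT. Without the libraries high in muscle markers, a setting chosen after seeing the data, there were 553 after cold, 2 at RT, 267 for the difference, and 17 structural subunits and 1 assembly factor in the Atf4WT cold response. The study's threshold gave 1 and 2 assembly factors in Atf4WT and Atf4AKO. Leaving out each library gave 2 to 515 genes after cold, 1 to 3 at RT, 0 to 64 for the difference and 2208 to 3556 in the Atf4AKO cold response. It gave 24 to 32 (Atf4WT) and 21 to 30 (Atf4AKO) structural subunits, 1 to 6 assembly factors (Atf4WT), Ndufaf7 at -0.10 to 0.030 (Atf4WT), and Ndufa2 at -0.014 to 0.36 and Ndufaf3 at -0.13 to 0.026 (Atf4AKO). Rescaling to the 75th percentile moved the median of all genes by under 0.1. The cause of these shifts was not tested. With 3 libraries per group, small differences between genotypes may have been missed, and the size that could be called was not tested.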
